A study of Homo sapiens with 12 samples.

Results

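The regions described here are coding regions on which disome footprints, RNA fragments shielded by 2 ribosomes that touch, were more than 2-fold above both DMSO libraries after 2 h with 1 µM girolline. Members were chosen from the disome counts themselves. Counts were divided by the library total and put on the usual CPM scale, and a region needed a mean of at least 10 CPM over the 4 disome libraries and a log2(CPM + 0.1) at 1 µM more than 1 above each DMSO library. Of 14506 regions at this level, out of 39156 with any disome count, 379 met the rule, which is 2.61%. The values that chose them are given as a description, without a test.

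All libraries came from wild-type HEK293T Flp-In cells, a line derived from human embryonic kidney that carries an engineered site for inserting transgenes. Cells received the solvent DMSO, 1 µM girolline or 10 µM girolline for 2 h, and no group carried a further genotype or agent. Disome and poly(A) RNA-seq libraries each comprised 2 DMSO libraries, 1 library at 1 µM and 1 at 10 µM. Each dose therefore rests on 1 library in 1 cell line, and separate cultures are not stated for the DMSO pair. The p-values below thus reflect only how far these samples spread, which may be technical. Each library was made from a bulk lysate, in which less RNA per cell and fewer cells carrying it cannot be told apart.

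Girolline is a natural product isolated from a marine sponge, and the series title places its action at eIF5A, in a way that depends on sequence context. eIF5A is a translation factor that carries the modified amino acid hypusine, binds ribosomes that have slowed, and assists peptide bond formation at difficult residues and the release of finished chains at stop codons. When a ribosome slows, the ribosome behind can run into it, and the pair protects a disome footprint. Monosome tables use other transcript IDs and were not used here, so the load of single ribosomes on the members was not measured, and the counts carry no position within a coding region.

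No table used here pairs the transcript IDs with gene names or sequences, so members are described by coding length, with an ID for only 4 of them, and the cell line could not be checked against marker genes. Total disome counts over merged regions ran from 2648836 to 4984625 per library and RNA-seq counts from 23129552 to 34232074. Members were thinly covered in DMSO, with a median of 31 counts in DMSO 1 and 54 in DMSO 2, against 124 at 1 µM and 272 at 10 µM. In DMSO 1, 114 members had under 20 counts, and 159 members had a mean DMSO level under 10 CPM, so these reached the minimum only through the treated libraries.

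Isoforms of a gene share reads, so members are not independent of each other. The 379 members represent 420 transcript IDs, since 34 of them merge IDs with identical disome counts. They fall in 214 blocks of 10 consecutive coding rows of the table, 127 of which hold 1 member and 3 of which hold 7. In the 87 blocks with 2 or more members, the difference at 1 µM ranged by a median of 0.17 on the log2 scale within a block and by at most 1.22. The same blocks also held 526 other regions of at least 10 CPM that were not members, with a median difference of 0.42 at 1 µM and 0.60 at 10 µM. In 58 blocks, every region of at least 10 CPM was a member.

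Across the members, the median disome level was 11.7 CPM in DMSO 1, 12.2 CPM in DMSO 2, 30.6 CPM at 1 µM and 54.6 CPM at 10 µM. The lowest and highest members stood at 0.378 and 378 CPM in DMSO 1, 1.13 and 389 CPM in DMSO 2, 7.65 and 829 CPM at 1 µM, and 7.42 and 1404 CPM at 10 µM. The members thus spanned a wide range of levels in each library, and the DMSO libraries lay close together. In log2(CPM + 0.1), the DMSO libraries differed by a median of 0.17 in size among members and 0.20 among the other 14127 regions of at least 10 CPM, and 8 members had DMSO libraries more than 1 apart. Over the 14506 regions, DMSO 2 lay more than 1 above DMSO 1 on 48 and more than 1 below it on 30.

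**Figure D1:**
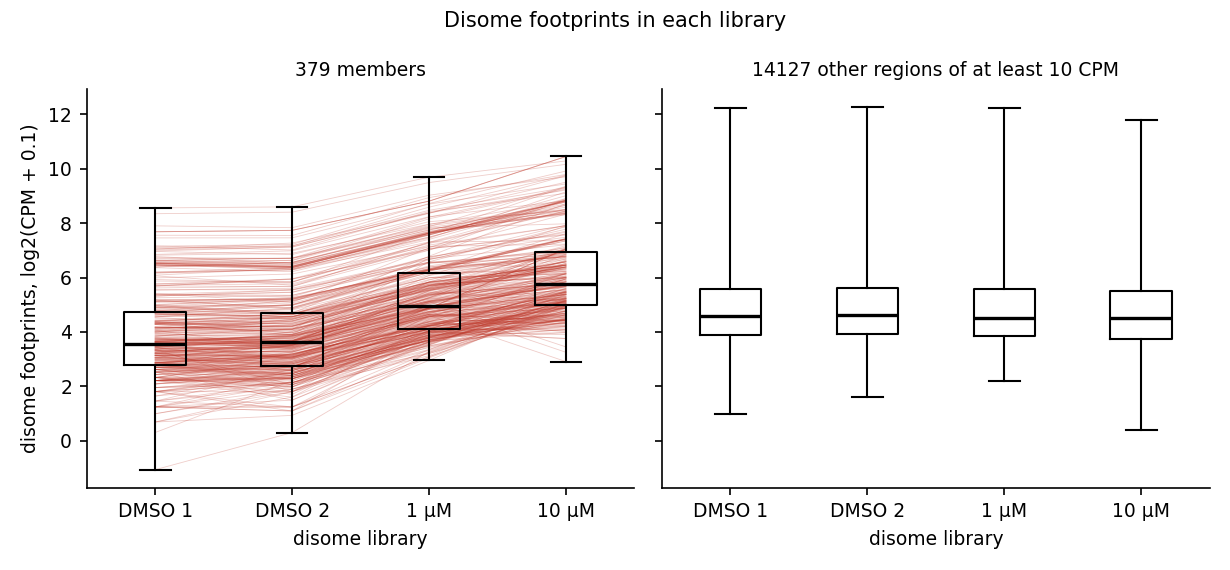
Disome level, as log2(CPM + 0.1), in each of the 4 disome libraries for the 379 members (left, 1 line per region) and the other 14127 regions of at least 10 CPM (right). Boxes show the median and quartiles and whiskers the lowest and highest region; the members' median was 11.7 and 12.2 CPM with DMSO, 30.6 CPM at 1 µM and 54.6 CPM at 10 µM.

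At 1 µM the members lay between 1.04 and 3.67 above the mean of the DMSO libraries, with a median of 1.34. Most were near the threshold, with 277 under 1.5, 78 from 1.5 to 2 and 24 above 2. The call by edgeR's quasi-likelihood test uses the same contrast as the rule, so nothing is read from the 379 members called higher at 1 µM, beside 5.39% called higher and 1.68% called lower of the 34606 regions tested. Scaled with TMM (trimmed mean of M-values), log2 differences lay 0.07 higher at 1 µM and 0.11 higher at 10 µM than in plain CPM, and the rule then gave 478 regions, including the 379. With DMSO 1 left out the rule gave 612 regions, and with DMSO 2 left out 797. The library left out was then also missing from the mean for the minimum of 10 CPM.

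The member with the largest difference at 1 µM was uc063cag.1, with a coding region of 36 codons. It had 1 disome count in DMSO 1, 5 in DMSO 2, 39 at 1 µM and 154 at 10 µM. So few DMSO counts leave the ratio poorly fixed. Its CPM ratio of 1 µM to DMSO 1 was 25.5, with an exact 95% counting interval from 4.32 to 1033, and the ratio to DMSO 2 was 8.52, from 3.36 to 27.7. These intervals cover counting error only. The next member, uc002wrq.4, of 112 codons, had 3.40 and 4.97 CPM with DMSO, 28.4 CPM at 1 µM and 70.2 CPM at 10 µM. Its ratio at 1 µM was 8.36 to DMSO 1, with an interval from 4.25 to 18.7, and 5.71 to DMSO 2, from 3.6 to 9.47.

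Better covered was the third in order, of 62 codons, whose DMSO libraries held 43 and 75 counts and whose treated libraries held 425 and 1218. Its levels were 16.2 and 17.0 CPM with DMSO, 105 CPM at 1 µM and 244 CPM at 10 µM, a difference of 2.65 at 1 µM and 3.87 at 10 µM. A region of 77 codons had 14.0 and 13.3 CPM with DMSO, 67.4 CPM at 1 µM and 196 CPM at 10 µM. In these 2 the DMSO libraries nearly coincided. Each block was represented here, and where members are ordered below, by its member with the highest mean disome CPM, which is not always the one with the largest difference. Among these representatives, the remaining 6 of the 10 largest spanned 53 to 216 codons and differences of 2.03 to 2.52 at 1 µM, and of 2.15 to 4.27 at 10 µM.

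In all, 23 members had a mean DMSO level of 100 CPM or more. The highest, of 158 codons, had 378 and 389 CPM with DMSO, 829 CPM at 1 µM and 1253 CPM at 10 µM, a difference of 1.11 at 1 µM and 1.71 at 10 µM. A region of 212 codons had 206 and 214 CPM with DMSO, 449 CPM at 1 µM and 1404 CPM at 10 µM, so that it differed from DMSO by 1.10 at the lower dose and by 2.74 at the higher. Another of 265 codons stood at 188 and 187 CPM with DMSO, 492 CPM at 1 µM and 889 CPM at 10 µM. These 3 regions had 499 counts or more in every library.

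Just inside the threshold were regions of 75, 189 and 155 codons, whose smaller difference at 1 µM was 1.001, 1.001 and 1.005. Just outside were regions of 109, 137 and 186 codons, at 0.9999, 0.9992 and 0.997. The region of 186 codons had 6.80 and 8.36 CPM with DMSO, 16.8 CPM at 1 µM and 75.6 CPM at 10 µM. It thus stood 3.31 above DMSO at 10 µM, beside 2.16, 2.28 and 2.03 for the 3 regions just inside. The threshold therefore separates regions that hardly differ at 1 µM.

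Members were short. Coding lengths ran from 21 to 459 codons with a median of 158, against a median of 421 codons among the other regions of at least 10 CPM. Of regions under 100 codons, 81 of 769 were members, which is 10.5%. The share was 6.30% at 100 to 199 codons (176 of 2795), 4.55% at 200 to 299 codons (95 of 2086) and 0.939% at 300 to 499 codons (27 of 2874). Among the 5982 regions of 500 codons or more there was no member. These classes were set with earlier results of the data known. With 1 member per block, 39, 104, 52 and 19 members fell in the first 4 classes. The regions of each class were not reduced to 1 per block, so these counts give no shares to set beside the percentages above.

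**Figure D2:**
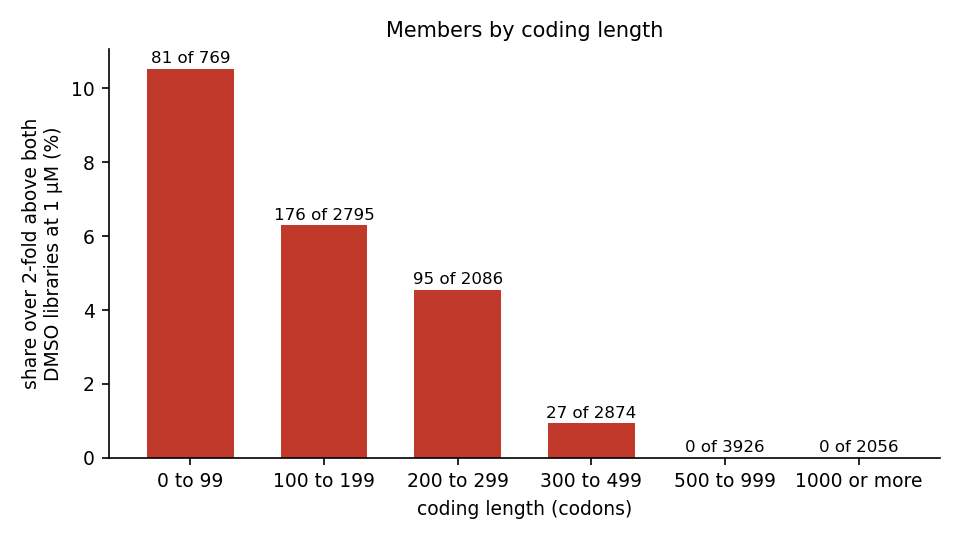
Share of regions of at least 10 CPM, in percent, that lay more than 2-fold above both DMSO libraries at 1 µM, by coding length in codons. Numbers above the bars are members and regions in the class; the share runs from 10.5% under 100 codons to 0.939% at 300 to 499 codons, with no member at 500 codons or more.

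The longest members, of 459 and 442 codons, had 9.44 and 11.8 CPM, and 6.80 and 5.20 CPM, in the DMSO libraries. At 1 µM they stood at 28.6 and 14.6 CPM, and at 10 µM at 32.3 and 15.6 CPM. Both were little higher at 10 than at 1 µM. The next longest block representative, of 400 codons, stood at 18.8 CPM at 1 µM and 34.3 CPM at 10 µM, a step of 0.87. Longer than the longest member were 6509 regions, 44.9% of those of at least 10 CPM. The one closest to the threshold had 524 codons, 62 and 102 counts in the DMSO libraries and 189 and 282 in the treated ones, and its smaller difference at 1 µM was 0.993. Regions of 500 codons or more had a median difference of -0.25 at 1 µM.

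At 10 µM the members lay between -0.62 and 5.34 from the mean of the DMSO libraries, with a median of 2.19. Against single libraries the median was 2.21 above DMSO 1 and 2.18 above DMSO 2. By edgeR's quasi-likelihood test, 376 of 379 were higher at 10 µM and none was lower, beside 20.8% of 34606 tested regions called higher and 14.9% called lower. More than 1 above both DMSO libraries were 366 members, beside 10.7% of the 14506 regions of at least 10 CPM. This comparison uses the same DMSO libraries as the rule, and the 10 µM library entered the minimum of 10 CPM, so these counts are a description. The values side by side were medians of 1.34 at 1 µM and 2.19 at 10 µM. In size, 237 members were more than 2 above DMSO at 10 µM and 53 more than 3. Among the other regions of at least 10 CPM, the difference at 10 µM had a median of -0.20, an upper quartile of 0.42 and a highest value of 3.38.

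The additional step from 1 to 10 µM had a median of 0.80 among members, with quartiles of 0.53 and 1.18, and ran from -1.70 to 2.19. Among the other regions of at least 10 CPM the median step was -0.11, with quartiles of -0.46 and 0.27. The step exceeded 1 in 143 members (37.7%) and in 528 other regions (3.74%), was between 0 and 1 in 221 members and was below 0 in 15. With 1 member per block, 70 of 214 had a step over 1 and 10 a step below 0. By edgeR's quasi-likelihood test, 237 of 379 members were higher at 10 than at 1 µM and 3 were lower, beside 7.70% and 4.36% of 34606 regions. The 10 µM library also entered the minimum of 10 CPM, so these counts are a description. The step uses the 1 µM library that chose the members. It compares 1 library with 1 library, DESeq2 called 69 of the members in place of 240, and both tools take the spread from the DMSO pair.

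**Figure D3:**
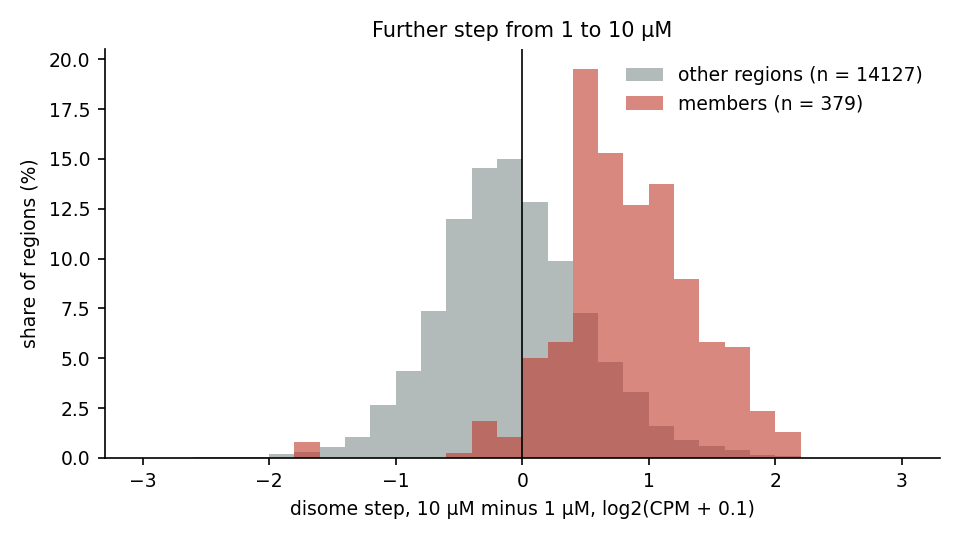
Distribution of the disome step, 10 µM minus 1 µM in log2(CPM + 0.1), for the 379 members and the other 14127 regions of at least 10 CPM, each as a percent of its own set in bins of equal width. Members centre on a median of 0.80 and the others on -0.11; 15 members lie below 0.

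By length, the median step over all members was 1.02 under 100 codons, 0.85 at 100 to 199, 0.74 at 200 to 299 and 0.55 at 300 to 499 codons. With 1 member per block it was 0.75, 0.80, 0.63 and 0.53, so the shortest class did not have the largest median once isoforms were reduced. Other regions of these classes had median steps of 0.11, 0.07, 0.01 and -0.04. At 1 µM the members' median difference was 1.52 in the shortest class, 1.33 at 100 to 199, 1.33 at 200 to 299 and 1.19 at 300 to 499 codons, where the others had 0.11, 0.13, 0.10 and 0.04. At 10 µM the members' medians were 2.58, 2.27, 2.11 and 1.71 in the same order.

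Taking 1 member per block, the largest step was on a region of 49 codons, with 12.5 and 14.5 CPM with DMSO, 29.1 CPM at 1 µM and 133 CPM at 10 µM, a step of 2.19. It had only just met the rule at 1 µM, with a smaller difference of 1.005. A region of 133 codons had 10.6 and 10.4 CPM with DMSO, 29.1 CPM at 1 µM and 116 CPM at 10 µM, a step of 1.99. In these 2 regions most of the change came between the doses. Regions of 189 and 238 codons, with steps of 1.90 and 1.88, lie in neighbouring blocks and had nearly the same counts, 6 and 9, and 6 and 10, with DMSO. At 1 µM they stood at 8.15 and 8.40 CPM and at 10 µM at 30.7 and 31.1 CPM. They thus met the minimum of 10 CPM only through the 10 µM library, which favours a large step.

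A few members did not go higher at 10 µM. The 15 members with a step below 0 fall in 11 blocks. In uc063hpa.1, of 107 codons, disome levels were 15.5 and 17.0 CPM with DMSO, 34.6 CPM at 1 µM and 10.8 CPM at 10 µM, a step of -1.66 that ended below both DMSO libraries. It is in a block with regions of 87 and 100 codons, whose counts were 98 and 125 at 1 µM and 37 and 47 at 10 µM. These 3 regions share a block and are the only members below the DMSO mean at 10 µM. Next came uc062yvg.1, of 150 codons, with 7.17 and 10.4 CPM with DMSO, 24.4 CPM at 1 µM and 18.5 CPM at 10 µM. It stayed above both DMSO libraries at 10 µM, as did the next 3 block representatives, of 163, 158 and 302 codons, whose steps were -0.35, -0.28 and -0.24.

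The members' mRNAs were then followed by the same transcript IDs in the RNA-seq libraries, which the rule did not use. RNA-seq counts were taken to leave out 20 codons of each coding region, because the deposited lengths lie 20 lower there. No label states this. One member, of 21 codons, had no RNA-seq counts. The other 378 were all tested, on 368 distinct RNA-seq regions, and 10 members merge IDs whose RNA-seq counts differ, for which the first ID was used. In the median, the members' mRNAs stood at 21.4 and 23.4 CPM with DMSO, 22.0 CPM at 1 µM and 21.3 CPM at 10 µM.

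At 1 µM, no member passed in RNA-seq by edgeR's quasi-likelihood test, and 0 of 56229 regions did (0%). An unadjusted p under 0.05 was found for 3 of 378 members and 557 of 56229 regions, and DESeq2 also called none of the members. The median fitted log2 fold change was -0.07 among members and -0.01 over all tested. In plain CPM the 1 µM library was below both DMSO libraries for 33.1% of members and above both for 17.7%, beside 19.96% and 32.2% of the other regions of at least 10 CPM. These shares are not matched for length, and the others include longer regions, whose mRNA differences lay higher. The median difference was -0.10 in members and -0.06 in others under 100 codons, and -0.01 and -0.03 at 100 to 199 codons. At 200 to 299 codons it was -0.03 and -0.01, and at 300 to 499 codons 0.00 and 0.02. Disome differences at this dose, from 1.04 to 3.67, were thus set against mRNA differences from -0.93 to 0.63 on the same scale.

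At 10 µM, 43 of 378 members fell in RNA-seq and 1 rose, in the edgeR quasi-likelihood fit at a Benjamini-Hochberg FDR of 0.05 over all 56229 regions. This is 11.4% falls, beside 0.571% falls and 0.537% rises over all tested. Among the other 14117 tested regions of at least 10 CPM, 171 fell (1.21%) and 162 rose. The 43 members that fell share reads in part, lying in 26 blocks. In a fit that kept from each block the transcript with the highest mean disome CPM, 19 of 91 members fell and none rose, beside 1.39% falls and 1.31% rises among 8069. In that fit an unadjusted p under 0.05, in either direction, was found for 39 of the 91 and for 1036 of the 8069. A joint fit with the disome libraries gave 52 falls and 1 rise with every library. When it left out an RNA-seq DMSO library, its spread came from the disome DMSO pair alone. Calls of those fits therefore do not measure the spread of the RNA-seq libraries.

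Over all 378 members, the median fitted log2 fold change of mRNA at 10 µM was -0.23, against -0.01 over all tested regions. In plain CPM the 10 µM library was below both DMSO libraries for 238 members (63.0%), between them for 59 and above both for 81 (21.4%). For the other regions of at least 10 CPM, which include longer ones, these shares were 32.2% below and 42.3% above. Values by length are given below. RNA-seq DMSO 2 itself lay a median of 0.10 above DMSO 1 among members, against 0.03 among the others. The median fold change was -0.30 without DMSO 1 and -0.20 without DMSO 2.

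Lower mRNA was most frequent among the shortest members, and short coding regions outside the set also fell more often than long ones. Under 100 codons, 25 of 80 tested members fell (31.3%), beside 85 of 678 other regions (12.5%). At 100 to 199 codons 11 of 176 members fell (6.25%), beside 72 of 2619 others (2.75%). At 200 to 299 codons 6 of 95 fell (6.32%), beside 12 of 1991 (0.603%), and at 300 to 499 codons 1 of 27, beside 1 of 2847. The members' share was thus above that of other regions in every class that holds members, though isoforms repeat within both. The difference between these shares was not tested.

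**Figure D4:**
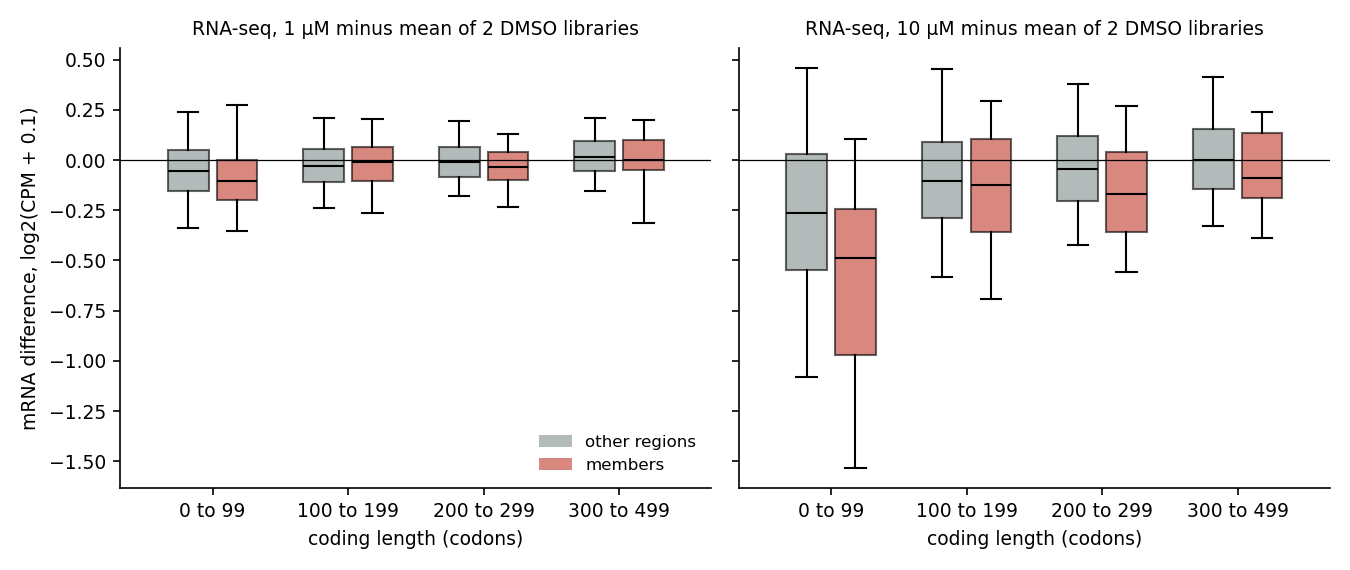
Difference in mRNA level, in log2(CPM + 0.1), of the 1 µM library (left) and the 10 µM library (right) from the mean of the 2 DMSO libraries, by coding length in codons, for members and other regions of at least 10 CPM. Boxes show quartiles with the median, and whiskers the 5th to 95th percentile; at 10 µM the median under 100 codons is -0.49 for members and -0.26 for others.

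In plain CPM, the median mRNA difference at 10 µM was -0.49 for members and -0.26 for other regions under 100 codons. It was -0.12 and -0.10 at 100 to 199 codons, -0.17 and -0.05 at 200 to 299 codons, and -0.09 and 0.00 at 300 to 499 codons. The gap was therefore widest in the shortest class and small at 100 to 199 codons.

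Among the mRNAs that fell, a region of 56 codons had 33.3 and 38.9 CPM in RNA-seq with DMSO, 31.9 CPM at 1 µM and 11.6 CPM at 10 µM. For 10 µM edgeR fitted a log2 change of -1.68 (SE 0.22) with quasi-likelihood adjusted p = 2e-10. Its disome level meanwhile was 24.5 and 31.6 CPM with DMSO, 86.2 CPM at 1 µM and 136 CPM at 10 µM. A region of 26 codons had 30.7 and 24.8 CPM in RNA-seq with DMSO, 27.5 CPM at 1 µM and 8.78 CPM at 10 µM, for which edgeR gave -1.70 (SE 0.23) on the log2 scale and adjusted p = 8.58e-10. Its disome level was 41.5 and 40.7 CPM with DMSO, 94.8 CPM at 1 µM and 107 CPM at 10 µM. At 1 µM, the mRNA of the region of 56 codons was slightly below both DMSO libraries and that of the region of 26 codons lay between them. If 20 codons are left out, the mRNA count of the region of 26 codons rests on few codons.

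A region of 53 codons, 1 of the 10 with the largest disome difference, had 17.7 and 17.4 CPM in RNA-seq with DMSO, 13.7 CPM at 1 µM and 6.79 CPM at 10 µM, which edgeR fitted as a log2 change of -1.41 (SE 0.25), adjusted p = 6.67e-06. The lowest fold changes, -2.47 on a region of 49 codons and -2.41 on uc063cag.1, rest on 9 and 5 RNA-seq counts at 10 µM, with adjusted p = 0.00025 and 0.0289 in the same edgeR test. Better covered was the region of 133 codons named above for its step, with 299 and 311 CPM in RNA-seq with DMSO, 321 CPM at 1 µM and 193 CPM at 10 µM, or -0.70 (SE 0.17) on the log2 scale in edgeR, adjusted p = 0.00572. Abundant mRNAs were also among those that fell, such as that of the region of 212 codons. It stood at 865 and 710 CPM with DMSO, 696 CPM at 1 µM and 560 CPM at 10 µM. Its change of -0.53 (SE 0.15) lay just under the cutoff, with adjusted p = 0.0489 in edgeR's test. The mRNA of the region of 265 codons, at 696 and 860 CPM with DMSO, had -0.48 (SE 0.15) and was not called.

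The single member whose mRNA rose had 131 codons. Its mRNA stood at 38.6 and 29.8 CPM with DMSO, 39.3 CPM at 1 µM and 91.5 CPM at 10 µM, which edgeR fitted as a log2 change of 1.38 (SE 0.18), adjusted p = 1.14e-10. Its disome level was 22.3 and 22.4 CPM with DMSO, 46.7 CPM at 1 µM and 125 CPM at 10 µM.

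The 43 members whose mRNA fell had a median of 91 codons, against 163 among the 334 tested without a call. Their median disome difference was 1.47 at 1 µM and 2.63 at 10 µM, against 1.32 and 2.15 in members without a call. The fitted log2 change of their mRNA had a median of -0.13 with 1 µM girolline and of -0.96 with 10 µM, against the same DMSO libraries. Members without a call had -0.07 and -0.18. The call uses the mRNA change at 10 µM, so the gap at that dose follows from the choice. Median mRNA level per 100 codons with DMSO was 101 CPM in members that fell and 15.2 CPM in those without a call. These groups differ in length and the call depends on counts, so nothing is read from this gap. Set against mRNA, in log2(CPM + 0.1), the disome difference over all 378 members had a median of 1.37 at 1 µM and 2.41 at 10 µM, where the disome difference alone had 1.34 and 2.19.

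Disome and mRNA levels with DMSO were set side by side. Levels were compared per length, as CPM per 100 codons, with 20 codons fewer for RNA-seq. The median disome density with DMSO was 8.18 in members and 6.20 in the other regions of at least 10 CPM, while the median mRNA density was 18.1 and 6.69. Members are shorter, and within each length class that holds members their median disome density was the lower. It was 19.0 in members and 28.8 in others under 100 codons, and 7.55 and 16.4 at 100 to 199 codons. At 200 to 299 codons it was 5.88 and 9.21, and at 300 to 499 codons 2.72 and 5.80. The log2 ratio of disome to mRNA density had a median of -1.33 in members, with quartiles of -2.06 and -0.64, and of -0.10 in the others, with quartiles of -0.76 and 0.54. It was below 0 in 329 of 378 members (87.0%) and in 54.2% of the others. The rule used the DMSO disome values, and 159 members had a mean DMSO level under 10 CPM, so a low disome density there is partly set by the choice of members and the ratio supports nothing further.

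**Figure D5:**
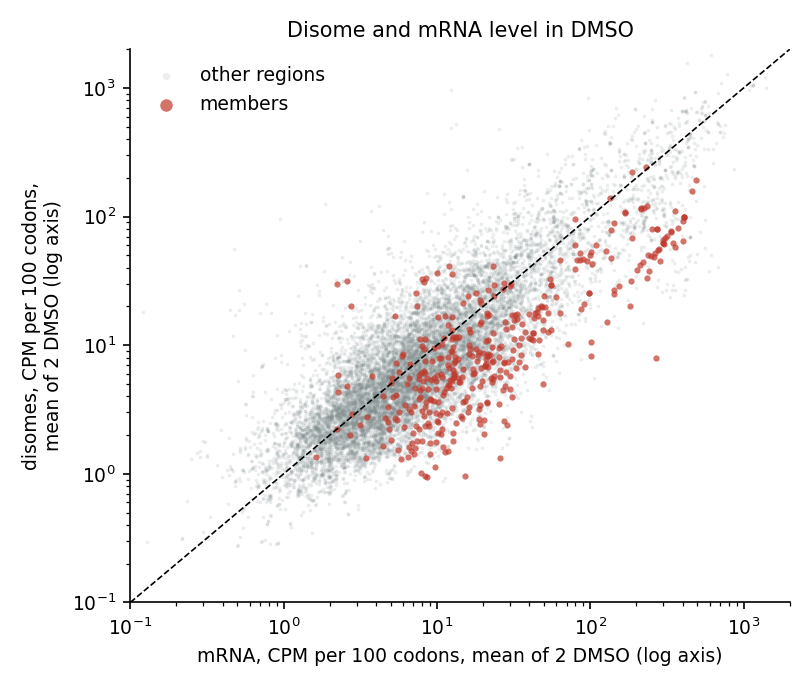
Disome level against mRNA level in DMSO, each as CPM per 100 codons, mean of 2 libraries, on log axes, for members and other regions of at least 10 CPM. The dashed line marks equal values; 329 of 378 members lie below it, and 1 member and 4 other regions with no level within the axes are not shown.

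By length, the median mRNA density with DMSO, which the rule did not use, was 43.2 in members and 26.6 in others under 100 codons. It was 17.0 and 18.2 at 100 to 199 codons, 14.3 and 10.8 at 200 to 299, and 7.97 and 7.07 at 300 to 499. The lowest log2 ratio of disome to mRNA density, -5.10, was that of the region of 133 codons with the step of 1.99. The block representatives with the highest DMSO disome levels, of 158, 151, 216, 212 and 265 codons, had 0.07, 0.24, -0.64, -2.05 and -2.16.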

How the data were processed

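The authors deposited raw counts per transcript, without normalization, in 1 headerless table per library. Per the submitters' processing notes the build was hg38 and the tools CASAVA 1.8 and STAR 2.7.0a, with no role stated; not given in the sources used here are the counting tool, the annotation and the treatment of multiply mapping reads. Isoforms appear to be counted with shared reads, so totals may exceed the reads. The deposited length column was taken as codons; it lies 20 lower in RNA-seq than in disome tables. Of 93916 rows with a coding length, rows with identical counts in all libraries of a kind were merged, leaving 39156 disome and 59394 RNA-seq rows with counts. CPM used totals over merged rows.

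Tests used edgeR 4.0.16 in R 4.3.3: TMM, filterByExpr, quasi-likelihood, FDR 0.05 over all rows tested, each kind fitted alone with 3 groups over 4 libraries, so the lone library of a dose takes its spread from DMSO. The fits were tested on simulated data. Alternatives were DESeq2 1.42.0, other scaling and filters, leaving out each DMSO library in a fit of both kinds, and the top row of each block of 10. Members, lists and length classes were chosen with earlier results of these data known. The naming rule took, with 1 member per block, those with the largest difference, DMSO level or step, the smallest step, the extreme lengths, mRNA calls and the rows beside the threshold; planned gene lists, marker lists and monosome comparisons were not analysed here, since no table pairs the IDs. The naming rule allowed 2 IDs in each direction.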

Additional observations from a re-analysis of the deposited data

How the results depend on the processing

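Of the 45 alternative values computed for the 6 counts reported (the number of members and the 5 counts of calls), 33 were within 1.5 times the reported one. The number of members, 379 in the main set, was 232 with a minimum of 20 CPM and 642 with a minimum of 5 CPM. With 1 transcript per block it was 91 of 4749 regions, and with a pseudocount of 1 it was 324. It ranged from 612 to 797 when a DMSO disome library was left out of both the reference and the mean for the minimum. RNA-seq calls at 10 µM numbered 19 with 1 transcript per block and ranged from 49 to 70 without a DMSO RNA-seq library, in place of 44, and 31 with DESeq2. Members were also chosen again by TMM-scaled CPM, or without disome DMSO 1 or 2, which was added after seeing the data. Of 477, 611 and 796 such members tested in RNA-seq at 10 µM, 50, 55 and 57 fell and 1, 5 and 5 rose. In the main set 43 of 378 fell and 1 rose, beside 0.571% falls over all tested regions. Disome calls with 1 transcript per block were 90 at 10 µM, 59 from 1 to 10 µM and 91 at 1 µM, where fewer regions are tested by construction. DESeq2 gave 69 calls from 1 to 10 µM in place of 240 and 159 at 1 µM in place of 379, and the cause was not tested. Fits without a DMSO library also joined both kinds of library, so their spread came only from the DMSO pair of the other kind. The joint fit with every library gave 376 disome calls at 10 µM, 204 from 1 to 10 µM and 379 at 1 µM, and 53 RNA-seq calls at 10 µM. Against these, disome calls without a DMSO library ranged from 370 to 372 at 10 µM, stood at 209 from 1 to 10 µM for either library left out, and ranged from 293 to 329 at 1 µM. No paired analysis was possible because the DMSO and girolline libraries compared share fewer than 2 replicate numbers. Each dose has 1 library, and members with few DMSO counts have wide counting error.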
